A study of Rattus norvegicus with 24 samples.

Results

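Glycosyltransferases build the sugar chains of glycoproteins and glycolipids by moving one sugar at a time from an activated nucleotide sugar onto a growing chain. Fucosyltransferases and the enzymes of the ABO blood group family add the last, outer sugars, sialyltransferases cap chains with sialic acid, and the GalNAc-transferases start O-linked chains on secreted proteins. The ventral and dorsal lobes of the rat prostate are secretory glands whose growth and secretions depend on androgens. The levels of 9 rat genes of this kind were followed here after a dose of the androgen dihydrotestosterone (DHT). They were the fucosyltransferases Fut4, Fut1 and Fut2, the ABO family gene Abo3, the sialyltransferases St6gal1 and St3gal1, the GalNAc-transferase Galnt1, the galactosyltransferase B4galt1, and Uap1, the enzyme that makes UDP-N-acetylglucosamine. The members were chosen by their log2 levels and DHT effects on these same arrays, so these values are a description and carry no test.

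A gene was found through the accession of its probes in a RefSeq table. Of the 9 genes, 7 had a probe, 9 probes in all, out of 8945 genes with a symbol on the array. No probe could be assigned to B4galt1 or Uap1, which were not analysed here. Fut2 and St6gal1 had 2 probes each. The rat ABO family has further close copies, Abo and Abo2, that were matched to no probe, and whether the Abo3 probe also binds their transcripts was not tested.

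Prostate, skin and forebrain came from castrated male Sprague-Dawley rats and ovary from intact females, all 12 weeks old. Castration preceded the dose by 3 days. Each animal received 1 intraperitoneal injection of vehicle or of DHT at 10 mg/kg, and RNA was taken 16 h later. There were 3 arrays in each of the 8 groups. The labels do not say which prostate lobe was taken, or whether the 3 tissues of one number came from 1 male. The short design text speaks of castrated males for all 4 tissues, and the sample labels were followed for ovary.

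Of 24 arrays, 23 were used. Forebrain vehicle array 3 had been excluded by the authors. Between 54.5% and 96.8% of probes were well above background on the arrays used. Ovary vehicle arrays 1 and 3 stood apart, with 96.4% and 96.8% of probes well above background against 70.1% on ovary vehicle array 2. Prostate vehicle array 3 had 1531 outlier spots, against 273 and 22 on prostate vehicle arrays 1 and 2. Its log2 levels had an interquartile range of 4.99, against 6.82 and 6.71 on those arrays. Marker lists followed the tissue labels. Prostate epithelial genes averaged 0.83 on vehicle prostate and -1.98 or lower on the vehicle arrays of the other tissues. Epidermal genes averaged 5.45 on vehicle skin, neuronal genes 1.87 on vehicle forebrain and ovarian genes 2.10 on vehicle ovary. Skin also held skeletal muscle RNA, whose marker mean was 8.91 or more on the DHT arrays and ranged from -2.27 (array 1) to 9.90 on vehicle. All levels are log2 signals relative to the 75th percentile of the array, so that a difference of 1 is a doubling. Levels of different probes were not set against each other. In whole tissue, more cells of a type and more RNA per cell cannot be told apart. All vehicle arrays lay on slides 1 to 3 and all DHT arrays on slides 4 to 6, so slide and treatment cannot be told apart.

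Among members tested in a tissue, Fut4 and Abo3 had the largest DHT effects, both in prostate. The 250 bases before their annotated starts are shown with those of Fut2, a fucosyltransferase with little difference in prostate. The sequences are from RefSeq, build GRCr8, written 5′ to 3′ on the strand of the gene, with any match to a searched motif in capitals.
Fut4, chr8:19872140-19872389, minus strand: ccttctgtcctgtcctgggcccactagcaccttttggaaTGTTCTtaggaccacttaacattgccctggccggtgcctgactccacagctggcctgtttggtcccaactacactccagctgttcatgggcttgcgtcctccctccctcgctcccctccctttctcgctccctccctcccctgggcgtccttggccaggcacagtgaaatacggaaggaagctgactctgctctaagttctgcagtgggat
Abo3, chr3:30141691-30141940, plus strand: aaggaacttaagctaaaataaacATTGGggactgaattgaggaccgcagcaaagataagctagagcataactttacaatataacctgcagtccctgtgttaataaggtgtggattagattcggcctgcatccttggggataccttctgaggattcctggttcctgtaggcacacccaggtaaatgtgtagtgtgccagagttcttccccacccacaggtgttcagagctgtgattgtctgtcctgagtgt
Fut2, chr1:105276028-105276277, minus strand: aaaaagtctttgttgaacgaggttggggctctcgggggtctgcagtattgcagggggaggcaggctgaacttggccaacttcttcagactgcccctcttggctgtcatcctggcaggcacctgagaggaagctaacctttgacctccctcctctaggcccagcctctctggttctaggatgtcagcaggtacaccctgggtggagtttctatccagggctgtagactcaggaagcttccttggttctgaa
The searched letters were TGTTCT, one arm of the androgen response element; the full palindromic androgen response element, in which that arm follows its reverse complement AGAACA after any bases NNN; CCAAT; and TATAAA, each on both strands. The Fut4 window held TGTTCT once, 211 bases before the start. The Abo3 window held ATTGG, which is CCAAT on the other strand, 227 bases before the start. The Fut2 window held none of them. Promoters were listed for 7 of the 9 genes, and TGTTCT was found in 1 of these, against 17.5% of all 33469 promoters. CCAAT was found in 3 of the 7 (Abo3, St6gal1 and Uap1), against 34% of all promoters. TATAAA was found in St6gal1 alone of the 7, against 12.9%, and the full androgen element in none of the 7, against 4 promoters of the whole table. The matches describe letters and say nothing of binding.

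Fut4 makes the Lewis x and sialyl Lewis x type structures by adding fucose in alpha-1,3 linkage to inner N-acetylglucosamine. Its level in prostate was 4.31, 4.31 and 4.86 on the vehicle arrays and 7.31, 7.30 and 7.30 on the DHT arrays. The 3 DHT arrays lay close together and above every vehicle array. The DHT effect was 2.81 ± 0.19 (log2, standard error), or 7.03-fold, against a median of 0.06 over the 23734 features tested in prostate. Of these features, called genes below, 6499 are genes with a symbol and 17235 are other names on the array without one. Each was taken with its brightest probe. In ovary Fut4 stood at 1.85, 2.28 and 2.10 on vehicle and at 1.91, 2.01 and 1.99 on DHT arrays. The DHT values lay inside the vehicle range, with an effect of -0.11 ± 0.23. In skin the levels were 0.08, 0.12 and -0.02 on vehicle and -0.62, -0.07 and -0.34 on DHT arrays, an effect of -0.40 ± 0.26 with the groups just apart. In forebrain they were -1.14 and -1.02 on the vehicle arrays used and -1.98, -2.03 and -1.95 on DHT arrays, an effect of -0.90 ± 0.12 with every DHT array below both vehicle arrays. Fut4 was higher with DHT in prostate and lower in forebrain, and forebrain vehicle arrays differed from DHT arrays in other respects. Skeletal muscle markers (5 measured) averaged -0.37 on the forebrain vehicle arrays (range -0.39 to -0.34) and -4.01 on the DHT arrays (range -4.53 to -3.00). Neuronal markers (8 measured) ranged in mean from 1.84 to 1.91 on vehicle and from 2.28 to 2.42 on DHT arrays. Stromal markers (4 measured) ranged from 0.72 to 0.95 on vehicle and from -0.01 to 0.34 on DHT arrays. For leukocyte markers (5 measured) these ranges were 0.09 to 0.70 and -0.30 to 0.01. The part of these shifts in the Fut4 value was not tested. On vehicle arrays the order of tissues was prostate (4.49 ± 0.32, SD, n = 3), ovary (2.08 ± 0.21, n = 3), skin (0.06 ± 0.07, n = 3) and forebrain (-1.08 ± 0.08, n = 2), with no overlap between neighbours.

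**Figure D1:**
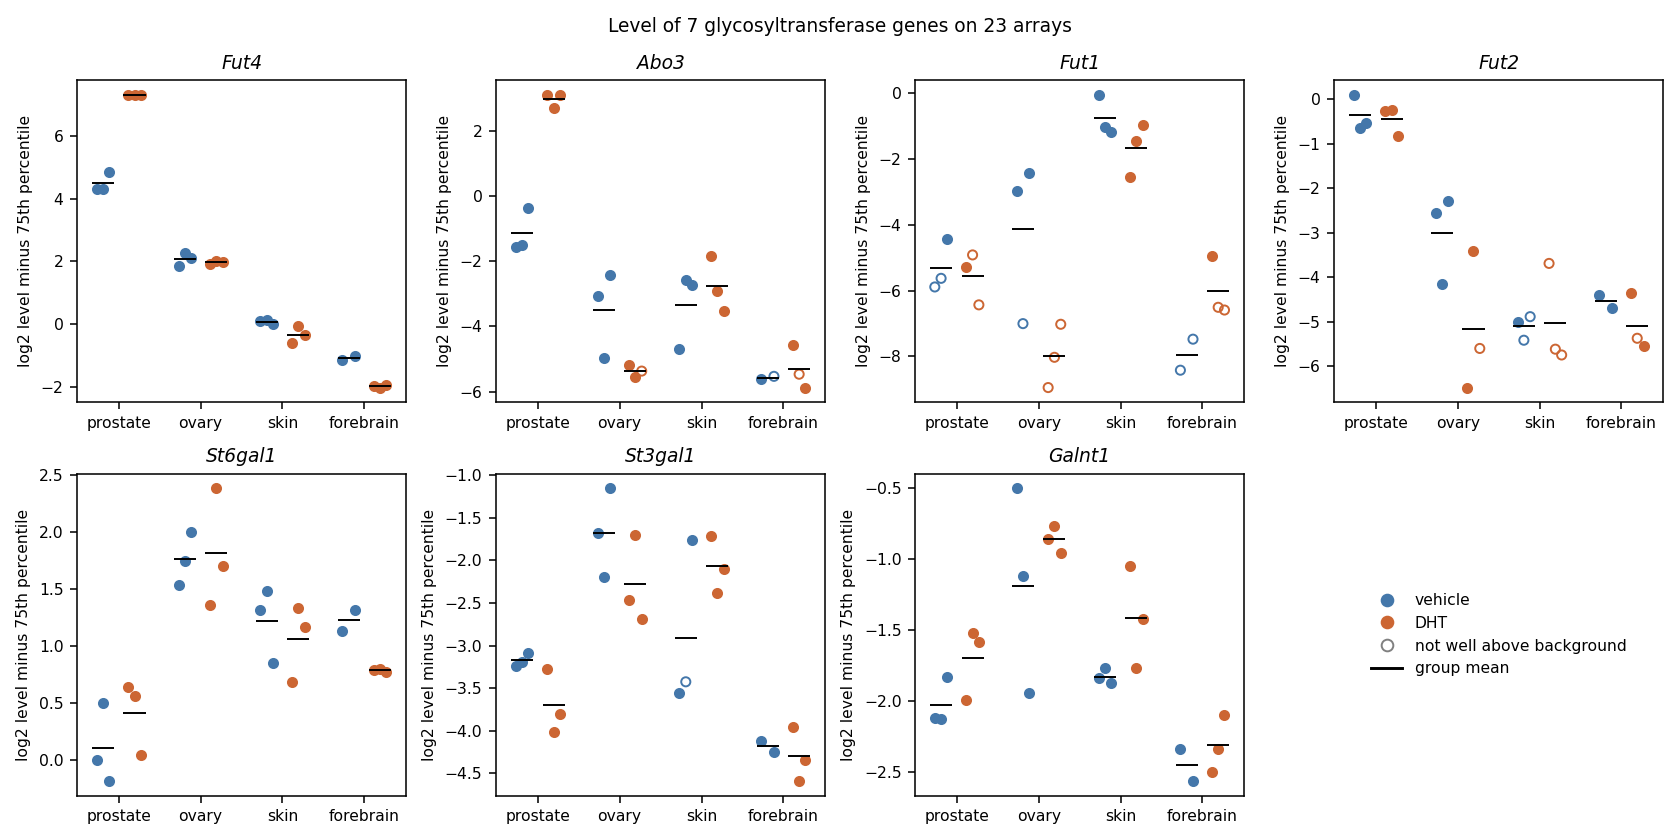
Level of the 7 measured genes on each array, as log2 signal minus the 75th percentile of the array, by tissue and treatment. Fut4 and Abo3 stand higher on all DHT arrays of prostate than on vehicle arrays, while open circles mark Fut1 outside skin, and Fut2 in skin, as mostly not well above background.

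Abo3 belongs to the family of blood group A and B transferases, which add N-acetylgalactosamine or galactose to fucosylated chain ends. In prostate it read -1.55, -1.50 and -0.36 on vehicle arrays and 3.12, 2.73 and 3.11 on DHT arrays. All DHT arrays lay above all vehicle arrays, and vehicle array 3 was the highest of its group. The effect was 4.12 ± 0.35 (log2), or 17.4-fold. In ovary Abo3 read -3.05, -4.98 and -2.42 on vehicle arrays and -5.20, -5.57 and -5.37 on DHT arrays, the last not well above background. The vehicle arrays that read highest were the 2 that stood apart, arrays 1 and 3. The ovary effect of -1.89 ± 0.66 was -0.40 when vehicle array 2 alone stood for the vehicle group, and -2.64 without vehicle array 2. In skin the values were -4.68, -2.58 and -2.73 on vehicle and -1.84, -2.91 and -3.52 on DHT arrays, which overlapped, and the effect was 0.57 ± 0.68. Without skin vehicle array 1, which was also the array low in muscle genes, the effect was -0.10. In forebrain the probe read -5.61 and -5.53 on vehicle and -4.55, -5.47 and -5.88 on DHT arrays, 3 of the 5 well above background, and the effect was 0.27 ± 0.40. Vehicle prostate had the highest Abo3 level, -1.14 ± 0.67 (SD, n = 3), and skin (-3.33 ± 1.17, n = 3) and ovary (-3.48 ± 1.33, n = 3) overlapped. Forebrain, at -5.57 ± 0.05 (n = 2), was the lowest.

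The fitted DHT effect on Fut4 in prostate exceeded that in ovary by 2.92 ± 0.24, that in skin by 3.22 ± 0.24 and that in forebrain by 3.73 ± 0.25 (log2, standard error of a fit over all 23 arrays). For Abo3 the same differences were 6.02 ± 0.81, 3.55 ± 0.81 and 3.95 ± 0.86. Of the 6 members tested in prostate, Fut4 and Abo3 were 2 that passed the call rule (adjusted p under 0.05 with limma) with a higher level, where 5.04% of all genes tested did. No member passed with a lower level, where 4.61% of all genes tested did. Arrays of the 2 groups lay fully apart upward for 2 members, against 19.3% of all genes, and downward for 1 member, against 16.5%. The choice of members used this contrast, and nothing is read from these counts.

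The other fucosyltransferases of the set, Fut1 and Fut2, make the H antigen by alpha-1,2 fucosylation, the step that precedes the A and B transferases. Fut2 read 0.09, -0.65 and -0.54 on vehicle and -0.27, -0.24 and -0.84 on DHT prostate arrays with its brighter probe. These ranges overlapped and the effect was -0.08 ± 0.27. Its second probe read -1.72, -2.65 and -2.25 on vehicle and -2.16, -2.08 and -2.64 on DHT prostate arrays, likewise overlapping. Fut2 was highest in prostate (-0.37 ± 0.40, SD, n = 3, on vehicle), followed by ovary (-3.01 ± 1.01), forebrain (-4.55 ± 0.22, n = 2) and skin (-5.11 ± 0.28), with no overlap between neighbours on the brighter probe. On the second probe the vehicle arrays of ovary, forebrain and skin overlapped. In skin the brighter probe was well above background on 1 of 6 arrays and the second probe on 2 of 6. In ovary Fut2 read -2.57, -4.16 and -2.30 on vehicle and -6.48, -3.43 and -5.60 on DHT arrays. The DHT array at -3.43 lay above vehicle array 2, and the effect of -2.16 ± 0.89 had the widest error among the 6 members tested in ovary. It was -0.93 with normexp background correction, -1.01 with quantile normalization and -1.01 with vehicle array 2 alone, and the second probe gave -1.21 ± 0.89. In forebrain the effect was -0.55 ± 0.39, with overlapping groups.

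Fut1 had its highest level in skin. It read -0.05, -1.02 and -1.20 on vehicle and -2.55, -1.46 and -0.96 on DHT skin arrays. The groups overlapped and the effect was -0.90 ± 0.51. It was -0.55 without vehicle array 1, -0.46 without DHT array 1, and -0.46 with normexp or with array weights. In prostate it was well above background on 1 vehicle and 1 DHT array and was not tested there. In ovary it read -2.98 and -2.44 on vehicle arrays 1 and 3 and -7.01 on vehicle array 2, and it was not well above background on that array or any DHT array. Taken over all 3 vehicle arrays, Fut1 was at least 3.67-fold higher on vehicle than on DHT ovary arrays, a bound that rests on the 2 arrays that stood apart. In forebrain it was well above background on 1 DHT array. Across the 23 arrays the levels of Fut1 and Fut2 had a Pearson r of -0.08, a description over arrays that share tissues.

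St6gal1 adds sialic acid in alpha-2,6 linkage to galactose of N-glycans. Its brighter probe read 0.00, 0.50 and -0.18 on vehicle and 0.64, 0.56 and 0.05 on DHT prostate arrays, which overlapped, and the effect was 0.31 ± 0.25. On vehicle arrays it was highest in ovary (1.76 ± 0.23, SD, n = 3), close in forebrain (1.23 ± 0.13, n = 2) and skin (1.22 ± 0.33, n = 3), whose ranges overlapped, and lowest in prostate (0.11 ± 0.35, n = 3). In forebrain it read 1.13 and 1.32 on vehicle and 0.79, 0.80 and 0.77 on DHT arrays. Every forebrain DHT array lay below both vehicle arrays, with an effect of -0.44 ± 0.12 beside the shifts in marker levels given above. The effects in ovary (0.05 ± 0.33) and skin (-0.16 ± 0.31) were within their errors. Its other probe was well above background on no array of prostate or forebrain and does not inform on DHT there. In ovary that probe was well above background on 3 of 6 arrays and its effect was -1.54 ± 0.47, with the groups apart. The vehicle arrays among these 3 were arrays 1 and 3, which stood apart. Vehicle array 2 read -5.36, against -7.05, -5.74 and -6.68 on DHT arrays. The mean of both probes gave an ovary effect of -0.74.

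St3gal1 caps O-linked chains with alpha-2,3 sialic acid. In prostate it read -3.24, -3.19 and -3.08 on vehicle and -3.28, -4.02 and -3.80 on DHT arrays. The groups lay just apart, DHT array 1 by only a small step, and the effect was -0.53 ± 0.22. In skin 2 vehicle arrays read -3.55 and -3.42 and the third -1.76, against -1.71, -2.38 and -2.10 on DHT arrays, an effect of 0.85 ± 0.52. Leaving out vehicle array 1 gave 0.53 and leaving out vehicle array 3 gave 1.43, and normexp gave 0.30. The effects in ovary (-0.60 ± 0.40, and -0.08 with vehicle array 2 alone) and forebrain (-0.11 ± 0.22) came from overlapping arrays. Ovary had the highest vehicle mean (-1.68 ± 0.52), overlapping with skin (-2.91 ± 1.002), and forebrain the lowest (-4.18 ± 0.09, n = 2).

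Galnt1 attaches the first N-acetylgalactosamine of O-linked chains. It read -2.12, -2.13 and -1.83 on vehicle and -1.99, -1.52 and -1.59 on DHT prostate arrays, overlapping, with an effect of 0.33 ± 0.19 that was 0.07 with normexp. In skin it read -1.84, -1.77 and -1.88 on vehicle and -1.05, -1.77 and -1.42 on DHT arrays. DHT array 2 and vehicle array 2 had nearly the same value, and the effect was 0.42 ± 0.28. The effects were 0.33 ± 0.39 in ovary (-0.05 without vehicle array 3, 0.67 without vehicle array 1) and 0.14 ± 0.17 in forebrain. Tissue means on vehicle spanned a narrow range, from -1.19 ± 0.72 in ovary to -2.45 ± 0.16 in forebrain, with overlap between ovary and skin and between skin and prostate.

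**Figure D2:**
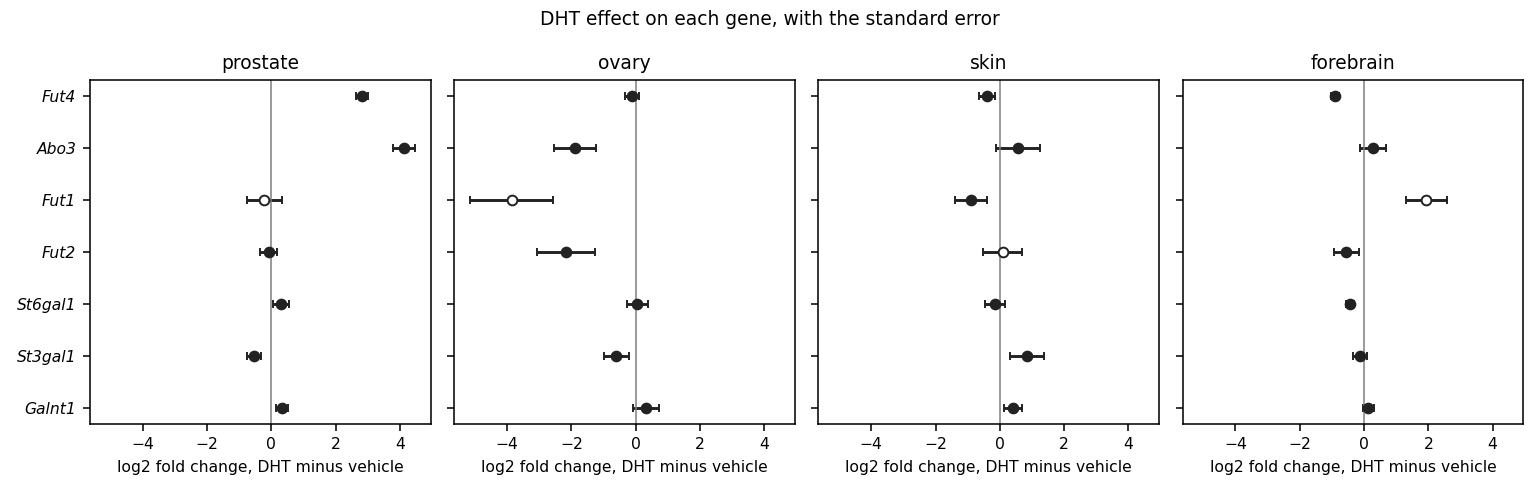
DHT effect on each gene in the 4 tissues as log2 fold change (DHT minus vehicle) with its standard error; open circles mark genes well above background on fewer than 3 arrays of the tissue. Fut4 (2.81) and Abo3 (4.12) in prostate lie far to the right of the other points of that tissue, and the wide bars in ovary belong to Abo3, Fut1 and Fut2.

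With all arrays used, no member passed in ovary, skin or forebrain, with 6 members tested in each tissue, where limma called 0% of all genes tested in each. Arrays of the 2 groups lay apart downward for 1 member in ovary (Abo3), against 11.1% of all genes, and upward for 0 members, against 2.7%. In skin they lay apart upward for 1 member (Galnt1, by a gap of 7.1e-05), against 6.07%, and downward for 1 (Fut4), against 6.19%. In forebrain they lay apart downward for 2 members (Fut4 and St6gal1), against 24.2%, and upward for 0 members, against 23.1%. At an unadjusted p under 0.05 limma counted 3075 of 29394 genes in ovary, 1192 of 24121 in skin and 7234 of 26361 in forebrain.

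The prostate values come with a shift in cell type markers. Of 6 adipocyte markers tested in prostate, 4 rose with DHT (Adipoq, Cd36, Cidec and Fabp4, by 1.18 to 1.60 on the log2 scale). The mean of the 7 measured adipocyte markers ranged from -0.65 to -0.21 on vehicle and from 0.31 to 0.61 on DHT arrays. Prostate epithelial markers (6 measured) ranged in mean from 0.45 to 1.36 on vehicle and from -0.51 to 2.16 on DHT arrays. Among them Pbsn, the gene of the prostate secretion probasin, rose by 5.85 ± 0.31 (adjusted p = 0.003245, limma). Krt8, a keratin of luminal epithelial cells on the same list, fell by 0.99 ± 0.21 (adjusted p = 0.03824). Krt14, a basal keratin on the epidermal list, fell by 1.18 ± 0.23 (adjusted p = 0.03011). No leukocyte or stromal marker passed. The part of these shifts in the Fut4 and Abo3 values was not tested.

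Lists of other genes for the same chemistry held 175 genes, of which 91 had a probe and 80 were tested in prostate. Of these 6 rose and 4 fell with DHT, 12.5% against 9.65% of all genes tested, and the median effect was 0.07 against 0.06. Gfpt1, the first enzyme of the hexosamine route to UDP-N-acetylglucosamine, read -0.29, -0.57 and -0.71 on vehicle and 1.26, 0.58 and 0.39 on DHT arrays. Its DHT arrays all lay above its vehicle arrays, a rise of 1.27 ± 0.26 (adjusted p = 0.03434, limma). Amdhd2, which deacetylates N-acetylglucosamine phosphate and so runs against that route, fell by 0.89 ± 0.14 (adjusted p = 0.01571). Of the 16 nucleotide sugar genes tested, 1 rose and 1 fell, and the median was -0.05.

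The list of N-glycan assembly in the endoplasmic reticulum held genes that assemble and transfer the precursor, and some that process the transferred chain. Its effect was positive for 14 of 15 genes tested, against 55.3% of all genes tested in prostate. The list median was 0.52, and 3 rose (20%, against 5.04% of all genes). Magt1, a subunit of the oligosaccharyltransferase, read 1.34, 1.32 and 1.47 on vehicle and 2.13, 2.49 and 2.50 on DHT arrays. Its groups did not overlap, and it rose by 0.996 ± 0.17 (adjusted p = 0.01859). Mogs, the glucosidase that trims the first glucose of the transferred chain, rose by 0.95 ± 0.17 (adjusted p = 0.02185). Dad1, another oligosaccharyltransferase subunit, rose by 0.90 ± 0.19 (adjusted p = 0.03556). Among 5 genes of N-glycan branching in the Golgi, Mgat2, which opens the second antenna of complex chains, rose by 1.07 ± 0.19 (adjusted p = 0.02215).

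In the supply of fucose, 1 of 4 genes tested rose: Fpgt, which makes GDP-fucose from salvaged fucose, by 0.98 ± 0.20 (adjusted p = 0.03311), with its 2 probes at 0.98 and 1.01. None of the 5 other fucosyltransferases passed with limma. Their median was 0.04, from Fut7 at -0.82 to Fut11 at 0.81, and 2 of the 5 had an unadjusted p under 0.05, as did 27.6% of all genes tested in prostate. In the ABO family A3galt2, which makes an alpha-1,3-galactose end, moved opposite to Abo3. It read 2.21, 1.97 and 1.77 on vehicle and 0.39, 0.79 and 0.37 on DHT arrays, and it fell by 1.46 ± 0.20 (adjusted p = 0.01054) with no overlap. Ggta1, the other gene of that list tested, had a value of -0.48.

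None of 9 sialyltransferases and none of 9 galactosyltransferases passed in prostate with limma. Their medians were -0.09 and 0.18, and 0 and 1 of them, respectively, had an unadjusted p under 0.05, against the same 27.6%. In the supply of sialic acid Npl, the lyase that breaks it down, fell by 1.25 ± 0.20 (adjusted p = 0.016), 1 of 6 genes tested. Among 9 genes of O-glycan initiation and core extension, Gcnt3, which builds branched mucin cores, fell by 2.22 ± 0.41 (adjusted p = 0.02502) and was well above background on 1 of its 3 DHT arrays. With normexp background correction its value was -0.95 and did not pass. Of the 10 genes, A3galt2 passed whichever 1 array was left out. The other 9 were lost without vehicle array 1, vehicle array 2 or DHT array 3, where 0 genes of the lists were called higher in each case and 2, 1 and 1 lower. Without DHT array 2 the lists had 0 genes higher and 2 lower.

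**Figure D3:**
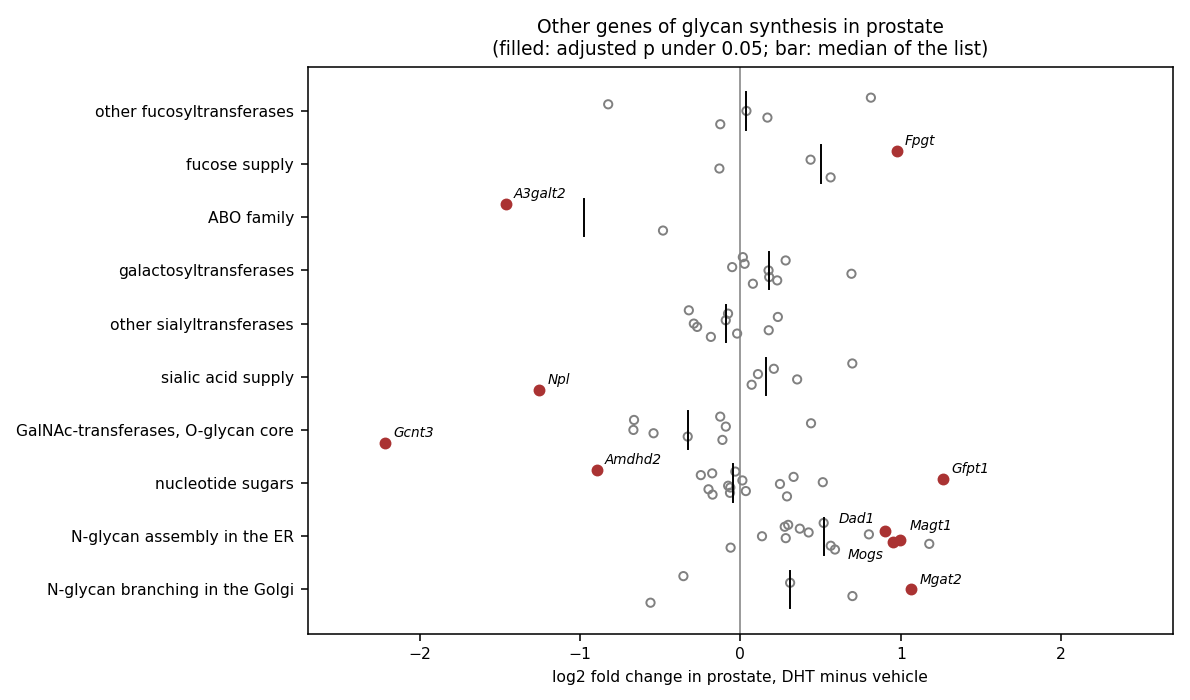
DHT effect in prostate on each of 80 other genes of glycan synthesis, by list, as log2 fold change; filled points have an adjusted p under 0.05 and black bars are list medians. The 3 called genes of the N-glycan assembly list, which also holds genes that process the transferred chain, lie to the right with 14 of 15 genes above 0. Gfpt1 (1.27) and Gcnt3 (-2.22) are the outermost points.

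In the other tissues none of these genes passed with limma. The smallest adjusted p was 0.161 among 86 genes in ovary, 0.752 among 76 in skin and 0.0761 among 81 in forebrain. At an unadjusted p under 0.05 there were 4 genes in ovary (4.65%, against 10.46% of all genes), 1 in skin (1.32%, against 4.94%) and 22 in forebrain (27.2%, against 27.4%). In ovary the smallest p-values were those of Galnt5 (-2.88), a GalNAc-transferase not well above background on any DHT array, and A4galt (-1.81), the P1/Pk synthase. Both read highest on vehicle arrays 1 and 3, which stood apart. On vehicle array 2 Galnt5 read -5.43, against -4.04 and -3.47 on those arrays. A4galt read -4.72 on vehicle array 2, against -4.73, -4.89 and -5.59 on DHT arrays. In skin they were those of Fut7 (1.59), the leukocyte sialyl Lewis x enzyme, and St3gal2 (0.64). In forebrain they were those of Fuca1 (-0.75), the lysosomal fucosidase, and St8sia5 (0.82), a ganglioside sialyltransferase.

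Whether the DHT effect differed between the 4 tissues was tested for 71 of these genes in a limma fit over all arrays. It differed for 4 (5.63%), against 4.83% of all genes tested. For Mogs the prostate effect exceeded that in ovary by 0.63 ± 0.24, in skin by 1.23 ± 0.24 and in forebrain by 0.80 ± 0.25 (adjusted p = 0.02489). Magt1 (adjusted p = 0.04794) likewise had the largest effect in prostate, and A3galt2 (adjusted p = 0.04313) the lowest. Fut7 (adjusted p = 0.0351) differed through skin, where its effect exceeded the prostate one, the difference of prostate minus skin being -2.41 ± 0.71.

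Genes whose level followed Fut4 most closely over the 23 arrays were Furin (r = 0.99), Magt1, Arf4, Mogs and Isg20 (each 0.98). Furin is a protease of the secretory pathway and Arf4 a GTPase of Golgi transport. Over the 17 arrays without prostate these correlations were 0.92 to 0.96. Their DHT effects in prostate were 0.95 to 1.29, against 2.81 for Fut4. The prostate arrays took part in choosing them and the 5 genes for Abo3, so these effects are a description. The closest to Abo3 were Gadd45g (0.96), Svs4 (0.95), Pbsn (0.94), C20h6orf89 and Wap (each 0.93), and without prostate 0.73 to 0.87. Pbsn was too dim to be tested in ovary, skin or forebrain, and Abo3 was near background on forebrain and ovary DHT arrays. The correlations with Abo3 without prostate therefore include signals near background. In prostate Gadd45g, a stress-response gene, had an effect of 1.93 ± 0.36, Svs4, a seminal vesicle secretory protein, 2.21 ± 0.83, C20h6orf89 0.64 ± 0.20 and Wap 0.95 ± 0.57. Fut4 and Abo3 correlated with each other at 0.83 over all arrays and at 0.15 over the 17 without prostate. Arrays of a tissue share that tissue's level, and these correlations are descriptions with no test.

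The genes directly beside Fut4 and Abo3 in the GRCr8 gene order were not tested here. The nearest tested genes on either side of Fut4 were Cwc15 (0.27 ± 0.16, with 4 genes between) and Mre11 (0.40 ± 0.16, with 2 between). Those of Abo3 were Dipk1b (0.20 ± 0.22, with 13 between) and Surf6 (-0.21 ± 0.20, with 11 between), and none of the 4 passed in prostate. Fgf21, directly beside Fut1, had a value of 0.01 ± 0.28. Bcat2, a branched-chain amino acid aminotransferase with 4 genes between it and Fut1 and 8 between it and Fut2, rose by 2.22 ± 0.27 (adjusted p = 0.008341).

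**Figure D4:**
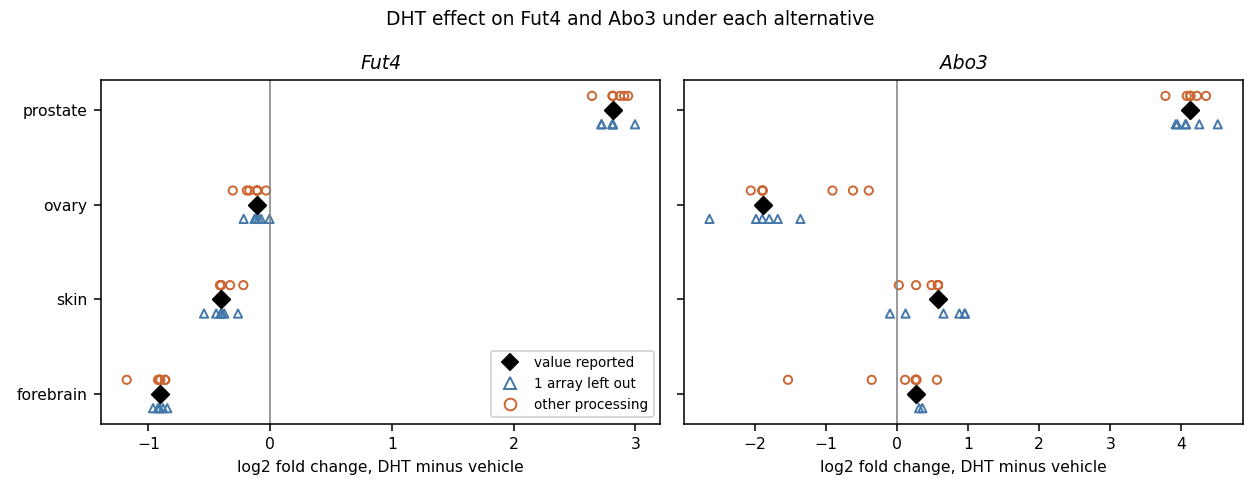
DHT effect on Fut4 and Abo3 by tissue as log2 fold change; diamonds are the values reported, triangles the values with 1 array left out and circles the values under other processing. In prostate all values lie between 2.64 and 3.00 for Fut4 and between 3.78 and 4.51 for Abo3, while those of Abo3 in skin and forebrain fall on both sides of 0.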

How the data were processed

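RNA of 4 rat tissues was hybridised to one-colour Agilent arrays, 4 to a slide on 6 slides. The deposited files held linear spot intensity. Per the file headers it came from Feature Extraction 10.5.1.1, while the submitters' processing notes name version 10.1 and limma. The processed signal, background-subtracted and not normalized between arrays, was used. Each array had 42429 spots, of which 1417 were controls and were left out, as were outlier spots. Of 41012 probes, 10813 were named through their accession in a RefSeq table of GRCr8.

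Values were log2 processed signal minus the 75th percentile of the array, over spots that were no outliers. Genes were kept where well above background on at least 3 arrays of the tissue, with the probe of highest mean signal. Fits were made per tissue (limma 3.58.1 under R 4.3.3; lmFit, eBayes), with Benjamini-Hochberg adjustment over all genes tested and a threshold of 0.05. The fit over all tissues had slide as a random block (correlation 0.0964, from 2000 genes) and was a moderated F test of 3 differences. Errors of effects are standard errors and errors of levels standard deviations. The number of arrays limits the precision. The design text calls the 3 samples of a group biological replicates, the labels do not name the animals, so p-values speak only of the spread between the samples, which may be technical.

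An "at least" value sets the brighter group's mean against a floor for a group in which no array was well above background: per array, the lowest such signal or the probe's own if higher. Named were all members; per list and tissue up to 4 genes past the threshold with the largest effects, or, where none passed, the 2 with the smallest p; and the 5 genes best correlated with Fut4 and Abo3. Neighbours and marker genes were named besides. Members and lists were chosen with earlier results of these data known. The scripts were tested on simulated data. The planned normexp background correction (offset 50) used median signals, because the files gave no mean signals. Alternatives tried were normexp, quantile normalization, no filter, the mean over the probes of a gene, array weights, the replicate number as a block, left-out arrays and, chosen after seeing the data, a percentile with outlier spots. One gene of the lists is not reported here.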

Additional observations from a re-analysis of the deposited data

Results flagged for a closer look

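The effect of DHT on Fut4 had opposite signs in prostate and skin and in prostate and forebrain, with every array apart in both tissues of each pair. The difference of the log2 effects was 3.22 for skin and 3.72 for forebrain, each tissue fitted alone. For Abo3 the same held between prostate and ovary, with a difference of 6.02. The ovary effect on Abo3 was -1.89, and -0.40 with vehicle array 2 as the only vehicle array. Groups lay apart upward for 19.3% of all genes in prostate, and downward for 11.1% in ovary, 6.19% in skin and 24.2% in forebrain. The 3 differences were not tested, because the members were chosen with them known. Among the other genes of glycan synthesis the effect differed between tissues by limma's F test for Mogs (adjusted p = 0.02489), Fut7 (adjusted p = 0.0351), A3galt2 (adjusted p = 0.04313) and Magt1 (adjusted p = 0.04794).

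Forebrain vehicle array 3, which the authors excluded, read above both other forebrain vehicle arrays for the genes given here. Its log2 level was -0.15 for Abo3, -1.07 for Fut1, -0.88 and -1.71 for the 2 probes of Fut2 and -1.04 for St3gal1. The brighter probe of St6gal1 went the other way, at 0.14 against 1.13 and 1.32 on the other forebrain vehicle arrays. On array 3, 97.0% of probes were well above background. Its log2 levels had an interquartile range of 1.92, against 5.91 and 5.89 on forebrain vehicle arrays 1 and 2.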

How the results depend on the processing

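In prostate the effects on Fut4 (2.64 to 3.00) and Abo3 (3.78 to 4.51) kept their direction, and both passed under every alternative run except the replicate block. The members were chosen with their DHT effects known, so nothing is read from whether a member passed, here or in the next paragraph. Same-numbered arrays of the 2 treatments did not deviate together in any tissue (correlations from -0.43 to 0.01), which gave no sign that the numbers pair them. With so few arrays in a group, and the 2 treatments on different slides, this cannot exclude a pairing. With the replicate block limma called 0 genes higher and 0 lower in prostate, in the lists too, and 0 in the other tissues. Counts of calls in prostate moved more than effects. Against 1196 higher and 1094 lower there were 377 and 271 with normexp, 340 and 279 with no filter and 2533 and 1952 with array weights; leaving out 1 array gave 277 to 1660 higher and 297 to 1086 lower. With outlier spots in the percentile there were 1573 and 777, so 66.9% of calls were higher in place of 52.2%. The lists had 0 genes higher and 1 lower with normexp and with no filter, 14 higher with array weights, and 0 to 7 higher and 1 to 4 lower without 1 array. The cause was not tested.

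In ovary Fut4 was -0.31 and Abo3 -0.40 with vehicle array 2 as the only vehicle array, and Abo3 was -0.91 with normexp and -0.62 with quantile normalization. Quantile normalization called 15 genes lower. Without ovary vehicle array 2, which leaves the 2 arrays that stood apart, 72 genes were called higher, 7508 lower, Abo3 among them, and 8 of the lists lower; without any other ovary array these counts were 0. In forebrain, adding vehicle array 3 gave -1.18 for Fut4 and -1.54 for Abo3. With normexp Abo3 was -0.36, and 140 genes were called higher and 360 lower. Fut4 was among those called, and in no other forebrain alternative. Leaving out 1 forebrain array gave 0 to 8 genes higher and 0 to 41 lower. Abo3 in skin ranged from -0.10 to 0.95 and in ovary from -2.64 to -1.36 without 1 array. Normexp put Fut4 in vehicle skin 0.97 above forebrain (1.14 as reported) and Abo3 in vehicle prostate 0.74 above skin (2.20 as reported). The difference between tissues was called for 999 genes, 576 without the slide block and 664 with quantile normalization, and for 4 genes of the lists, 1 without the slide block. Quantile normalization moved the median of all genes by 0.31 in ovary, normexp by -0.20 in prostate and -0.16 in forebrain. Levels near background limit Fut1, Fut2 and Abo3 outside their highest tissue.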
